A study of Mus musculus with 8 samples.

Results

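A set of 9 genes that carry acid or base across membranes or interconvert carbon dioxide and bicarbonate was followed in mouse mammary tumors: 3 bicarbonate transporters (Slc4a4, Slc4a2 and Slc4a7), the proton channel Otop1, the lactate transporters Slc16a1 and Slc16a3, and the carbonic anhydrases Car2, Car9 and Car12. They were picked by gene symbol, 9 of the 55414 gene identifiers in the count table, and all 9 were among the 14458 genes with enough counts to be tested. The 9 genes were selected on a readout: they were proposed with fold changes of this same calcipotriol against EtOH comparison already known. Their fold changes and adjusted p-values are therefore given as a description and support nothing beyond it.

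The tumors grew from the PyMt cell line, which was made from a breast tumor of an MMTV-PyMt transgenic mouse (the polyoma middle T antigen driven by a viral promoter active in mammary epithelium) on the C57BL/6 background. Cells of this 1 line were placed in the mammary fat pad of wild-type female C57BL/6 mice, so all tumors share the line and the host strain. Starting soon after cell transfer and repeatedly thereafter, the mice received topical calcipotriol, a vitamin D analog, in ethanol (calcipotriol-treated, n = 4) or ethanol alone (EtOH-treated, n = 4), and whole-tumor RNA was sequenced after the last treatment. The labels call the cells epithelial; the epithelial keratins Krt8 and Krt18 were abundant, at 260 to 665 CPM (counts scaled to a common library total), while Epcam, Krt19 and Cldn4 had no counts in EtOH tumors 1 and 2.

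A growing tumor makes lactate and carbon dioxide, and both leave acid that cells have to export or buffer. Carbonic anhydrases interconvert carbon dioxide and bicarbonate inside the cell (Car2) or at its outer face (Car9, Car12), SLC4 proteins carry bicarbonate across the plasma membrane, and SLC16 proteins carry lactate together with a proton. Car9 and Slc16a3 are textbook targets of the hypoxia-inducible factors, and the vitamin D receptor is the transcription factor that calcipotriol binds.

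Promoter sequence was available in RefSeq (GRCm38.p6) for 8 of the 9 genes, as 10 annotated starts. In all, 4 stretches just upstream of a start, all on the plus strand, are shown: those of Slc4a4 and Otop1, the 2 genes with the clearest difference between groups, and those of Car9 and Slc16a3, which differed in parallel among tumors of the same group. Capitals mark the hypoxia response core, searched as ACGTG and GCGTG on both strands, with overlapping matches counted separately. For Slc4a4 the internal start is shown, since the bases before the upstream start lie in an annotated exon.
Slc4a4 chr5:89027716-89027965: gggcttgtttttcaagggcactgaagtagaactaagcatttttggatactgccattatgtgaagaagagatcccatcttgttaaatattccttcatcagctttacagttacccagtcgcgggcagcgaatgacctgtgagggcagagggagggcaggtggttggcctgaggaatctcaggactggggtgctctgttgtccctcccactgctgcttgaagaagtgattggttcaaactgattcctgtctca
Otop1 chr5:38277154-38277403: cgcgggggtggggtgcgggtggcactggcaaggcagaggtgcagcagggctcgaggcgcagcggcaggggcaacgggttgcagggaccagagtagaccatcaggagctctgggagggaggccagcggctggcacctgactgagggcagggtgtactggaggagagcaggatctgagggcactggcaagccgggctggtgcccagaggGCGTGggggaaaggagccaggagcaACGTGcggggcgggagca
Car9 chr4:43506776-43506965: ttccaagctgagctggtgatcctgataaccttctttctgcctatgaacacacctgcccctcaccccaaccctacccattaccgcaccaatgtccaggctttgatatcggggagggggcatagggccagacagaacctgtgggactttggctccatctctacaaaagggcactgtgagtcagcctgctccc
Slc16a3 chr11:120948817-120949052: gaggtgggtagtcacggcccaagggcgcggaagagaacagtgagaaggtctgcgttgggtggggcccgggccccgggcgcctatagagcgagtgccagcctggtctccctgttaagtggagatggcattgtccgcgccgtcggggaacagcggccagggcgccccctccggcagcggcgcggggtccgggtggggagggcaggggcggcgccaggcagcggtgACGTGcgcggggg

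In the 250 bases before each start, 6 of the 10 entries held the core, as did 38.6% of 32851 RefSeq promoters of the same length. The Otop1 stretch held 2 cores, the Slc4a4 internal start held none and its upstream start held 1, and the single Car9 core lay in the annotated exon between the bases shown and the start. Of the 2 Slc16a3 cores, 1 is in the bases shown. The repeat bound by the vitamin D receptor, searched as 2 copies of GGTCA or GTTCA with 4 bases between them, was found in 0 of the 10 entries and in 0.143% of all promoters. A match, or its absence, describes these letters only.

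Of the 9 genes, 1 was higher and 1 was lower in calcipotriol-treated tumors past both thresholds (edgeR quasi-likelihood test, Benjamini-Hochberg adjusted p below 0.05 over all genes tested, and a log2 fold change of at least 1 in size). Among all 14458 genes, 2.02% passed these thresholds, 1.07% as higher and 0.948% as lower. The gene that rose was Slc4a4 and the gene that fell was Otop1. In 4 of the 9 genes (Slc4a4, Otop1, Slc16a1 and Car12) the values of the 4 calcipotriol-treated tumors lay entirely above or entirely below those of the 4 EtOH-treated tumors, against 12.5% of all genes. The 9 genes had a median log2 fold change of 0.27, against 0.02 over all genes. Since these measures come from the comparison on which the genes were chosen, nothing is read from the shares.

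**Figure D1:**
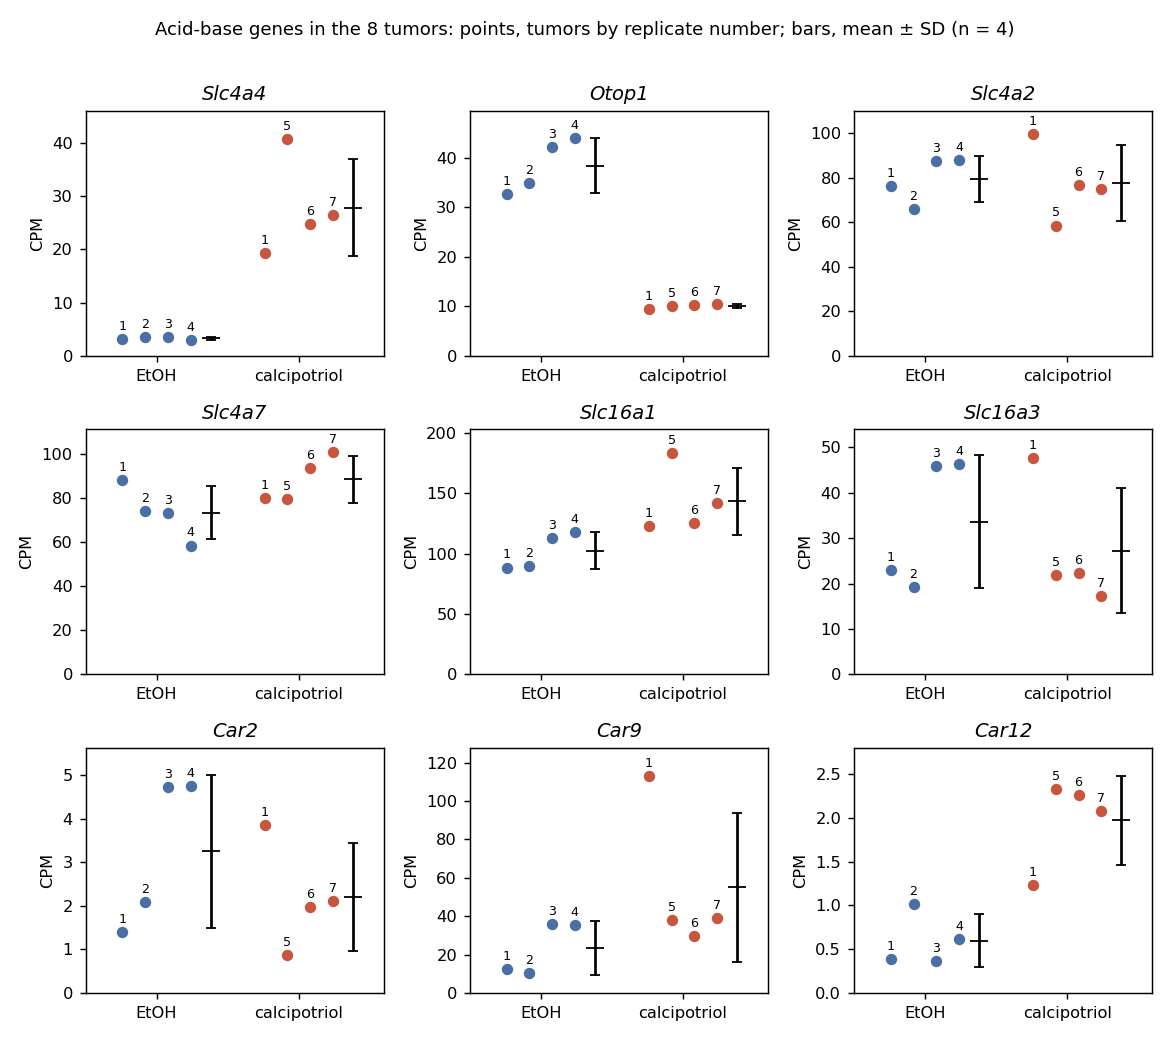
CPM (y axis, linear from 0) of each of the 9 genes in EtOH-treated (blue) and calcipotriol-treated (red) tumors; each point is 1 tumor labelled with its replicate number, and the black bar is the group mean ± SD (n = 4). Slc4a4 lay at 3.04 to 3.56 CPM with EtOH and at 19.3 to 40.7 CPM with calcipotriol, Otop1 moved the other way, and the points of Slc4a2, Slc4a7, Slc16a3, Car2 and Car9 overlapped between groups.

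Slc4a4 (ENSMUSG00000060961, chr5:88886818-89239653 of GRCm38, plus strand) encodes an electrogenic sodium bicarbonate cotransporter. It was measured at 3.16, 3.46, 3.56 and 3.04 CPM in EtOH-treated tumors 1 to 4 and at 19.3, 40.7, 24.8 and 26.4 CPM in calcipotriol-treated tumors 1, 5, 6 and 7. The EtOH-treated tumors were nearly identical, and the lowest calcipotriol-treated tumor was far above all of them. The means were 3.31 ± 0.244 and 27.8 ± 9.13 CPM (SD, n = 4 each), an 8.4-fold ratio. In the fit the log2 fold change was 3.07 (SE 0.25, 95% interval 2.52 to 3.62, edgeR adjusted p = 0.000475), the 4th smallest p of all genes tested. Summed over the tumors of a group, the value rests on 293 and 2514 reads, and it stayed between 2.83 and 3.21 with each tumor left out in turn, passing both thresholds in 8 of 8 such fits.

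Slc4a2 (ENSMUSG00000028962, chr5:24423837-24440950) encodes the chloride/bicarbonate exchanger AE2, which brings acid equivalents into the cell. Its EtOH-treated tumors stood at 76.2, 65.9, 87.4 and 87.7 CPM and its calcipotriol-treated tumors at 99.7, 58.5, 76.8 and 75 CPM. Calcipotriol-treated tumors held both the highest and the lowest value, and the log2 fold change was -0.03 (SE 0.17, 95% interval -0.41 to 0.34, edgeR adjusted p = 0.943), with the sign turning when EtOH tumor 3, EtOH tumor 4 or calcipotriol tumor 5 was left out. Up to 817 of its exon bases are shared with Fastk on the opposite strand, and whether counting used strand is not given in the sources used here. Reads in those bases could have gone to either gene.

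Slc4a7 (ENSMUSG00000021733, chr14:14702279-14799940) encodes the electroneutral sodium bicarbonate cotransporter NBCn1, an acid extruder. It was measured at 88.4, 74.1, 73.2 and 58.6 CPM in EtOH-treated tumors and at 80.1, 79.6, 93.8 and 101 CPM in calcipotriol-treated tumors. Of the EtOH values, 3 lay below every calcipotriol value and EtOH tumor 1 lay among them. Its log2 fold change was 0.27 (SE 0.15, 95% interval -0.06 to 0.59, edgeR adjusted p = 0.368), and the interval lay below that of Slc4a4 throughout.

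Counted per length, as CPM per kilobase of annotated exons (FPKM), Slc4a4 made up 1.53% to 1.94% of the summed level of the 10 SLC4 genes with EtOH and 8.34% to 20.5% with calcipotriol. The SLC4 sum itself was 16.4 to 19.1 FPKM with EtOH and 18.4 to 21.7 FPKM with calcipotriol. Slc4a2, at 38.3% to 60% of the sum over the 8 tumors, held the largest share in each of them and Slc4a7, at 21.9% to 30.8%, the next.

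Otop1 (ENSMUSG00000051596, chr5:38275972-38304217, plus strand) encodes otopetrin 1, a proton-selective channel known from sour taste cells and the inner ear. It was measured at 32.7, 34.9, 42.2 and 44.1 CPM in EtOH-treated tumors and at 9.38, 10.1, 10.3 and 10.4 CPM in calcipotriol-treated tumors. The calcipotriol-treated tumors were nearly equal, and all were below the lowest EtOH-treated tumor. The means of 38.5 ± 5.51 and 10 ± 0.468 CPM (SD, n = 4 each) differed 3.83-fold. In the fit this was a log2 fold change of -1.94 (SE 0.15, 95% interval -2.27 to -1.60, edgeR adjusted p = 0.000475), the smallest p of all genes tested, and it passed both thresholds in 8 of 8 fits with 1 tumor left out (-2 to -1.86). The groups held 3430 and 917 reads.

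Otop1 is also expressed in brown fat, so brown adipocyte markers are given beside it. Ucp1 was at most 0.34 CPM and Cidea had no counts in any tumor, while Dio2, a thyroid hormone deiodinase, ranged from 24.4 to 206 CPM in EtOH-treated tumors and from 60.8 to 598 CPM in calcipotriol-treated tumors without passing the test (edgeR adjusted p = 0.256). The summed brown adipocyte list, almost all of it Dio2, was 27.3 to 206 CPM and 61.8 to 599 CPM. Of the other list members, Elovl3 was at most 0.284 CPM, Cox7a1 was at most 1 CPM, and Cox8b reached 2.16 CPM in EtOH tumor 4. The part of brown adipocytes in the Otop1 values was not tested.

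Slc16a1 (ENSMUSG00000032902, chr3:104638668-104658462) encodes MCT1, a lactate and proton cotransporter of most cells. It stood at 88.5, 90, 113 and 118 CPM in EtOH-treated tumors and at 123, 183, 125 and 142 CPM in calcipotriol-treated tumors. The groups did not overlap, but the gap between EtOH tumor 4 and calcipotriol tumor 1 was narrow. The log2 fold change of 0.49 (SE 0.16, 95% interval 0.13 to 0.85) did not pass the test (edgeR adjusted p = 0.144) and was below the fold threshold.

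Slc16a3 (ENSMUSG00000025161, chr11:120948480-120960868) encodes MCT4, the lactate exporter of strongly glycolytic cells. It was measured at 23, 19.3, 46 and 46.4 CPM in EtOH-treated tumors and at 47.7, 21.9, 22.3 and 17.2 CPM in calcipotriol-treated tumors. EtOH tumors 3 and 4 and calcipotriol tumor 1 were high, and the other tumors of both groups were far below them. Between groups the log2 fold change was -0.30 (SE 0.37, 95% interval -1.12 to 0.52, edgeR adjusted p = 0.718), -0.72 without calcipotriol tumor 1 and 0.37 without EtOH tumors 3 and 4.

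Car2 (ENSMUSG00000027562, chr3:14886273-14900770), the cytosolic carbonic anhydrase II, was low throughout, at 1.41, 2.09, 4.74 and 4.76 CPM in EtOH-treated tumors and at 3.85, 0.868, 1.97 and 2.12 CPM in calcipotriol-treated tumors. The same 3 tumors that were high for Slc16a3 were high for Car2. Its log2 fold change was -0.56 (SE 0.56, 95% interval -1.79 to 0.67, edgeR adjusted p = 0.645), and 0.33 without EtOH tumors 3 and 4. Red blood cells carry much of this enzyme, and the red blood cell markers summed to 3460 to 5840 CPM in EtOH-treated and 436 to 821 CPM in calcipotriol-treated tumors, 5 of the 6 tested being called lower. Within the EtOH group these markers were higher in tumors 1 and 2, where Car2 was lower. Within the calcipotriol group the marker sum and Car2 were both highest in tumor 1 and both lowest in tumor 5. Their part in the Car2 value was not tested. In RNA from whole tumors, fewer cells of a type and less RNA per cell cannot be told apart.

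Car9 (ENSMUSG00000028463, chr4:43506966-43513729) encodes the membrane-bound carbonic anhydrase IX, whose catalytic site faces outward. It was measured at 12.5, 10.3, 36 and 35.5 CPM in EtOH-treated tumors and at 113, 37.8, 29.8 and 39.1 CPM in calcipotriol-treated tumors. EtOH tumors 3 and 4 lay within the range of calcipotriol tumors 5, 6 and 7, EtOH tumors 1 and 2 lay below it, and calcipotriol tumor 1 lay above every other tumor. The log2 fold change was 1.22 (SE 0.51, 95% interval 0.09 to 2.35) and did not pass the test over all genes (edgeR adjusted p = 0.238). Without calcipotriol tumor 1 it was 0.59, and over 15 alternative fits it ranged from 0.59 to 2.27.

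Car12 (ENSMUSG00000032373, chr9:66713686-66766845), the other outward-facing membrane carbonic anhydrase here, had the lowest group means of the 9 genes, at 0.389, 1.02, 0.365 and 0.617 CPM in EtOH-treated tumors and at 1.23, 2.33, 2.26 and 2.08 CPM in calcipotriol-treated tumors. The groups did not overlap, although EtOH tumor 2 came close to calcipotriol tumor 1. These values rest on 8 to 21 reads per EtOH-treated tumor and 31 to 51 per calcipotriol-treated tumor. In the fit the log2 fold change was 1.72 (SE 0.58, 95% interval 0.44 to 2.99, edgeR adjusted p = 0.146). DESeq2 gave 1.73 with an adjusted p of 0.0374 and so called it, in a fit that called 4.33% of all genes.

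The order of the genes' levels per length differed between groups mainly through Otop1 and Slc4a4. In EtOH-treated tumors the mean level was 23.1 FPKM for Slc16a1, then 11.2 for Otop1, 10.2 for Car9, 9.53 for Slc4a2, 6.33 for Slc16a3, 4.84 for Slc4a7, 1.34 for Car2, 0.306 for Slc4a4 and 0.0788 for Car12. Neighbours from Otop1 down to Slc4a7 overlapped in their ranges, whereas Slc16a1 stood above them and Car2, Slc4a4 and Car12 each stood apart below.

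In calcipotriol-treated tumors Slc16a1 (32.4 FPKM) and Car9 (23.8 FPKM) overlapped at the top. Slc4a2 followed at 9.31 FPKM, Slc4a7 at 5.82 and Slc16a3 at 5.13, the last 2 overlapping. Otop1, in the second place of the EtOH order, came sixth at 2.92 ± 0.136 FPKM (SD, n = 4), overlapping Slc4a4 at 2.57 ± 0.844 FPKM. Car2 at 0.91 and Car12 at 0.26 FPKM closed the order. The order depends on the length used: with the longest transcript in place of all exons, Slc4a2 was above Otop1 in EtOH-treated tumors and Slc4a4 above Otop1 in calcipotriol-treated tumors, in the latter case with overlapping ranges.

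Total carbonic anhydrase transcript varied mainly with Car9. The listed carbonic anhydrases, these 3 included, summed to 16.8, 17.2, 34.8 and 35.2 FPKM in EtOH-treated tumors and to 65.6, 40.8, 33.7 and 40.2 FPKM in calcipotriol-treated tumors. Car9 made up 26% to 44.8% of this sum with EtOH and 38.4% to 74.7% with calcipotriol. The mitochondrial enzyme Car5b, named after its values were seen, held 40.8% and 45.2% of the sum in EtOH tumors 1 and 2, more than Car9 there, and 10.4% to 24.5% in the other tumors (log2 fold change 0.39, edgeR adjusted p = 0.233).

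**Figure D2:**
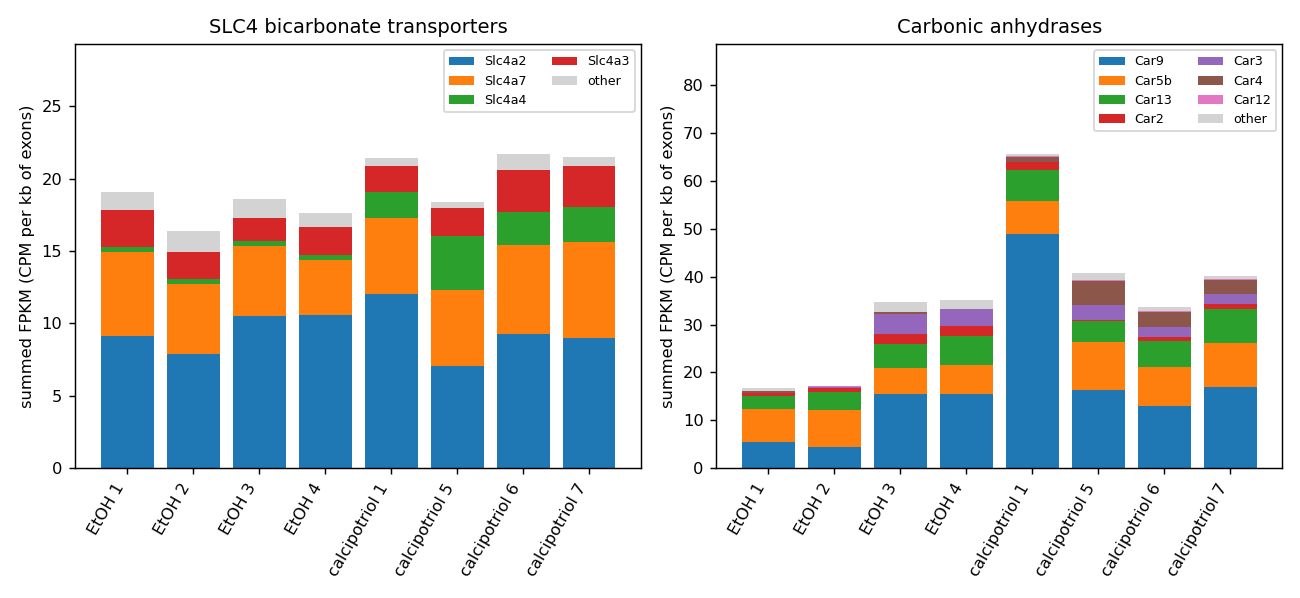
Summed level per length (y axis, FPKM as CPM per kilobase of exons, from 0) of the SLC4 genes (left) and carbonic anhydrases (right) in each tumor, stacked by gene. The Slc4a4 band is 1.53% to 1.94% of the SLC4 sum in EtOH-treated and 8.34% to 20.5% in calcipotriol-treated tumors, and the carbonic anhydrase sum is highest in calcipotriol tumor 1, at 65.6 FPKM, where Car9 is 74.7% of it.

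The other genes of acid-base transport were taken from 8 family lists, which hold 93 genes besides the 9. Of these, 55 were tested, and 38 were not, 13 of them with no counts at all. Of the 55, 1 rose (Car4) and 1 fell (Slc16a6), while 30 had a positive and 25 a negative log2 fold change, with a median of 0.07. At an unadjusted p below 0.05 there were 11 (20% of the 55, against 18.4% of all genes tested), a share near the background. Of the 93, DESeq2 called 6, among them Atp6v0a4, which edgeR did not test, in a fit that called 4.33% of all genes. Limma-voom called 1 (1.9% of all genes). Without calcipotriol tumor 1, edgeR called 5 (Car4, Gpr65, Hvcn1, Slc16a6 and Slc4a1), a fit in which 4.33% of all genes were called. Leaving out any of EtOH tumors 1, 3 and 4 or calcipotriol tumors 5, 6 and 7 left 0 called, and leaving out EtOH tumor 2 left 1.

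Car4, the carbonic anhydrase anchored to the outer membrane leaflet, was measured at 0.73, 0, 0.689 and 0.176 CPM in EtOH-treated tumors and at 1.91, 9.78, 5.96 and 5.64 CPM in calcipotriol-treated tumors. The groups did not overlap, and calcipotriol tumor 1, the tumor with the most Car9, had the least Car4 of its group. In the fit the log2 fold change was 3.84 (SE 0.86, 95% interval 1.93 to 5.75, edgeR adjusted p = 0.0444). It passed both thresholds in 1 of 8 fits with a tumor left out, and its adjusted p by limma-voom was 0.135.

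Slc16a6, a monocarboxylate transporter linked to the export of ketone bodies, was measured at 16.1, 10.5, 16.2 and 16.5 CPM in EtOH-treated tumors and at 8.58, 5.16, 5.72 and 7.08 CPM in calcipotriol-treated tumors. All 4 calcipotriol values were lower, with EtOH tumor 2 nearest to them. Its log2 fold change was -1.16 (SE 0.24, 95% interval -1.69 to -0.63, edgeR adjusted p = 0.0331), and it passed in 2 of 8 fits with a tumor left out.

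In the lists with no gene called by edgeR, the most abundant gene is named. The SLC4 list had 4 further tested genes, of which 1 had an unadjusted p below 0.05, DESeq2 called 1 and limma-voom 0, and Slc4a3, an anion exchanger, had a log2 fold change of 0.22 (edgeR adjusted p = 0.638). That 1 gene was Slc4a1, the band 3 anion exchanger of red blood cells, at 1.22 to 3.06 CPM in EtOH-treated and 0 to 0.596 CPM in calcipotriol-treated tumors (edgeR adjusted p = 0.09), beside the red blood cell sums given above, and the part of red blood cells in it was not tested.

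Sodium/proton exchangers and their cofactors numbered 10 tested genes with 2 at an unadjusted p below 0.05 and 0 by DESeq2 or limma-voom. Chp1, a cofactor of the exchanger NHE1, was measured at 112 to 137 CPM and 135 to 155 CPM (log2 fold change 0.19, edgeR adjusted p = 0.402). Of the SLC26 anion exchangers only Slc26a6 was tested (log2 fold change 0.07, edgeR adjusted p = 0.943), with 0 genes at an unadjusted p below 0.05 and 0 called by DESeq2 or limma-voom.

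The V-ATPase, the rotary proton pump of lysosomes and some plasma membranes, had 20 subunits tested, 13 with a positive and 7 with a negative log2 fold change. Of these, 2 had an unadjusted p below 0.05, and limma-voom called 0 of the list. DESeq2 called 1 subunit outside these 20, Atp6v0a4, named after its values were seen. It had no counts in EtOH-treated tumors and 3 to 15 reads in each calcipotriol-treated tumor. Atp6v0c, a subunit of the proton-conducting ring, was at 311 to 365 CPM in EtOH-treated and 253 to 321 CPM in calcipotriol-treated tumors (log2 fold change -0.27, 95% interval -0.55 to 0.01, edgeR adjusted p = 0.28).

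Besides Otop1, the voltage-gated proton channel Hvcn1 was the 1 tested gene of its list. It was measured at 8.8, 6.38, 7.05 and 4.63 CPM in EtOH-treated tumors and at 5.88, 1.78, 1.59 and 0.254 CPM in calcipotriol-treated tumors (log2 fold change -1.49, edgeR unadjusted p = 0.0517, adjusted p = 0.276), and neither DESeq2 nor limma-voom called it. Hvcn1 is a channel of immune cells. Macrophage markers summed to 2840 to 3860 CPM in EtOH-treated and 1240 to 2050 CPM in calcipotriol-treated tumors, with 9 of 10 negative and 3 called lower. The remaining marker, Cd163, was called higher, at 20.8 to 40.3 and 51.7 to 137 CPM (edgeR adjusted p = 0.0192). Lyz2 was the largest part of the sum, at 1340 to 1970 and 366 to 680 CPM. The part of macrophages in the Hvcn1 values was not tested. Of 5 acid sensors tested, 1 had an unadjusted p below 0.05, DESeq2 called 1 and limma-voom 0. In both cases this was Gpr4, named after its values were seen. Gpr4 stood at 1.74 to 5.65 CPM in EtOH-treated and 0.32 to 1.61 CPM in calcipotriol-treated tumors (edgeR adjusted p = 0.0964). The proton-sensing receptor Gpr65 stood at 6.86 to 8.91 CPM and 1.74 to 11 CPM (edgeR adjusted p = 0.477).

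**Figure D3:**
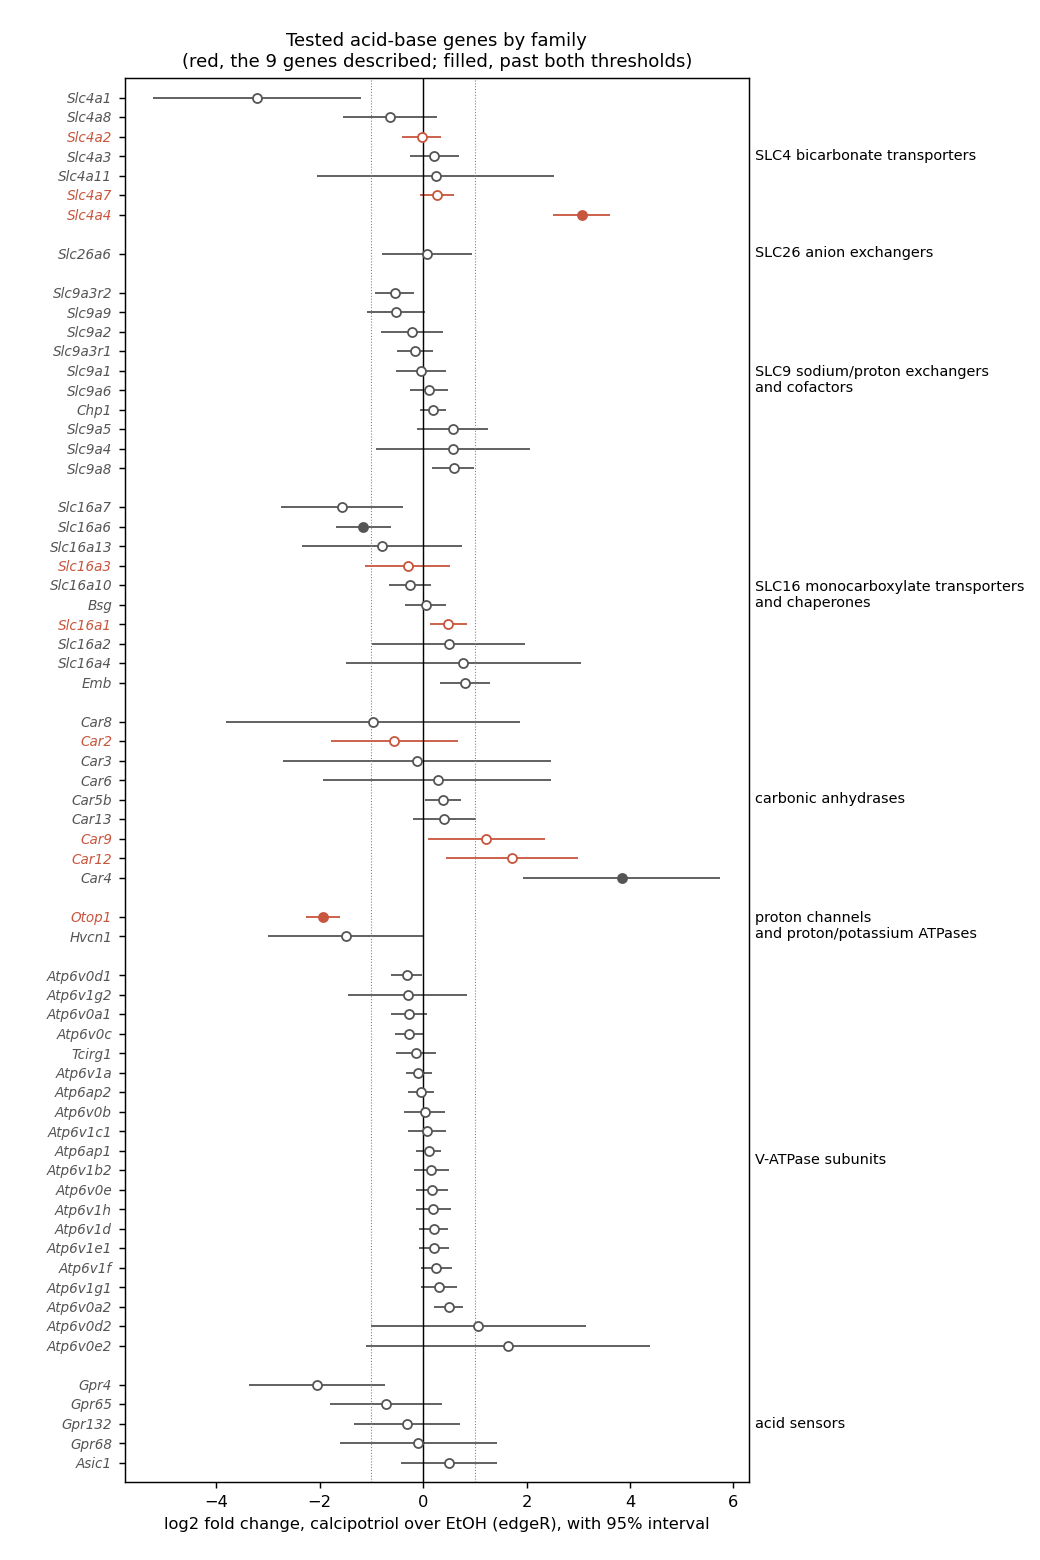
Log2 fold change (x axis, calcipotriol over EtOH, edgeR) with its 95% interval for every tested acid-base gene, grouped by family; the 9 genes described are red, filled points passed both thresholds and dotted lines mark log2 fold changes of -1 and 1. Filled points are Slc4a4 at 3.07, Car4 at 3.84, Slc16a6 at -1.16 and Otop1 at -1.94, and the V-ATPase subunits lie between -0.32 and 1.65.

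The EtOH-treated tumors fell into 2 pairs. Over all tested genes, log2 CPM correlated at 0.959 between tumors 1 and 2 and at 0.958 between tumors 3 and 4, and at 0.919 to 0.934 across the pairs. Car9, Slc16a3, Car2, Slc16a1, Slc4a2 and Otop1 were higher in both of tumors 3 and 4 than in either of tumors 1 and 2, Slc4a7 was lower in both, and Slc4a4 and Car12 did not separate the pairs. Skeletal muscle markers, 8 of 8 of which were higher in tumors 3 and 4, summed to 5.5 and 4.67 CPM in tumors 1 and 2 and to 48.9 and 51.9 CPM in tumors 3 and 4. Car3, the muscle and fat carbonic anhydrase, named after its values were seen, was at 0.0973 and 0.487 CPM in the first pair and 12.4 and 10.2 CPM in the second. In calcipotriol tumors 1, 5, 6 and 7 Car3 was at 0.199, 8.77, 6.44 and 6.15 CPM. The muscle sum there was only 3.02, 5.12, 10.8 and 8.39 CPM. White adipocyte markers, 5 of 8 of them higher in tumors 3 and 4, summed to 52.7 to 57.2 and 72.1 to 76.6 CPM, and endothelial markers, 8 of 10 of them lower, to 400 to 417 and 188 to 192 CPM. Macrophage markers, 8 of 10 of them higher in tumors 3 and 4, summed to 2840 and 3100 CPM in the first pair and 3860 and 3830 CPM in the second, and neutrophil markers, 5 of 6 of them lower, to 88.1 and 95.9 and to 31.4 and 30.1 CPM. The part of these cells in the levels of Car9, Slc16a3 and Car2 was not tested.

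Calcipotriol tumor 1 stood apart from the other calcipotriol-treated tumors in hypoxia response genes and in several marker lists. Its value was the highest of all 8 tumors in 15 of the 23 genes of the hypoxia list, which left out the 9 genes, and the list summed to 10300 CPM there whereas calcipotriol tumors 5, 6 and 7 had 6130 to 8220 CPM. The glucose transporter Slc2a1 and the collagen hydroxylase P4ha1, both named after their values were seen, were at 383 and 395 CPM in that tumor and at no more than 217 and 271 CPM in any other. Car9 and Slc16a3 were also highest in that tumor, and Slc4a4 and Car4 were lowest of the group there. In the EtOH group the hypoxia sum was 7320 and 7690 CPM in tumors 3 and 4 and 6140 and 6460 CPM in tumors 1 and 2. Car9 was also higher in tumors 3 and 4, but within each pair its order was the reverse. By gene, 10 of the 23 were higher and 8 were lower in both of tumors 3 and 4 than in either of tumors 1 and 2. Most of the sum came from the glycolysis genes Eno1, Aldoa, Ldha and Pgk1, all among the 10. They were at 1660, 1120, 963 and 572 CPM in EtOH tumor 1 and at 2270, 1510, 1350 and 837 CPM in EtOH tumor 4. The rise of the sum lay in these genes. Of the marker lists, macrophages summed to 2050 CPM in calcipotriol tumor 1 (7 of 10 genes above the other calcipotriol-treated tumors) and to 1240 to 1580 CPM in tumors 5, 6 and 7, T cells to 9.77 and 1.91 to 2.97 CPM, and the brown adipocyte list to 61.8 and 363 to 599 CPM. The part of hypoxia or of these cells in the level of Car9 was not tested in any tumor.

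Between groups, 1 of the 23 hypoxia genes was called and 5 had an unadjusted p below 0.05, or 21.7% against 18.4% of all genes, around a median log2 fold change of 0.13. It was Vegfa, the angiogenic growth factor, at 66.9 to 106 CPM in EtOH-treated and 233 to 261 CPM in calcipotriol-treated tumors (log2 fold change 1.43, edgeR adjusted p = 0.00233). Unlike Car9, Vegfa was as high in calcipotriol tumors 5, 6 and 7 as in tumor 1.

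**Figure D4:**
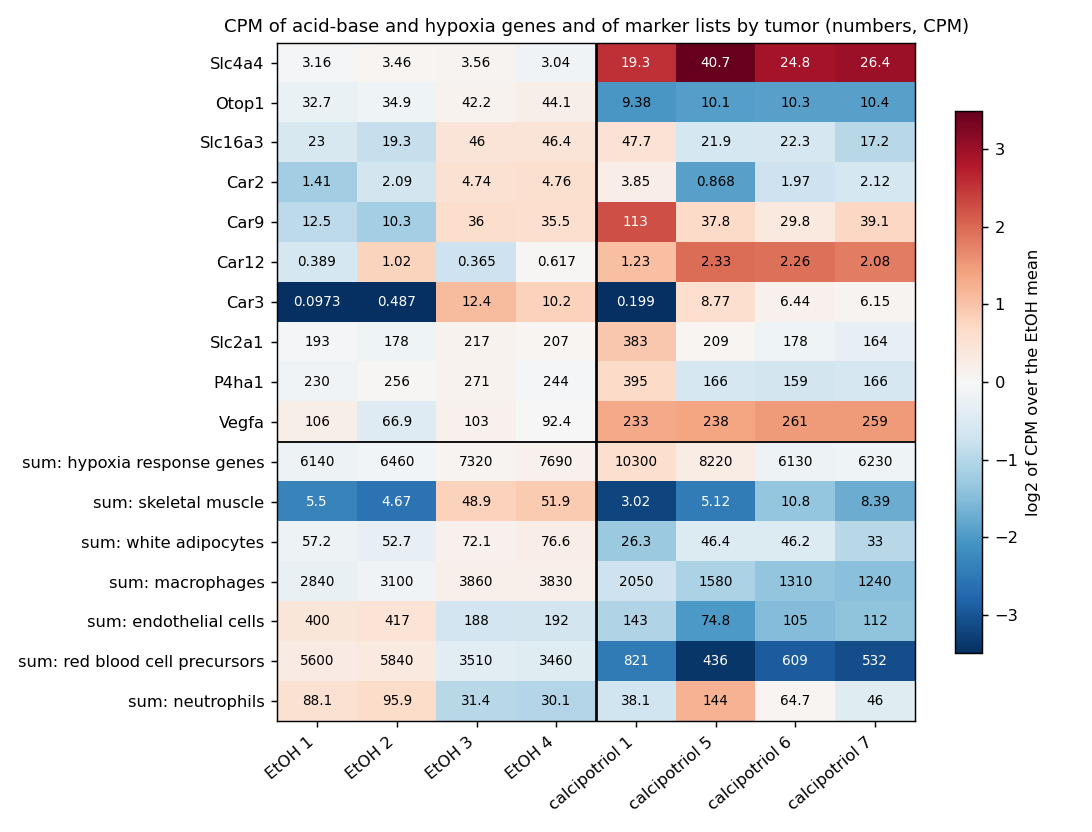
CPM (numbers) of acid-base and hypoxia genes and summed CPM of marker lists (rows) in each tumor (columns); the color is the log2 of the value over the EtOH mean. Slc4a4 and Otop1 change at the vertical line between groups. Car9, Slc16a3 and Car2 also rise from EtOH tumor 2 to 3 and fall from calcipotriol tumor 1 to 5. At the EtOH step the muscle, white adipocyte, macrophage and hypoxia sums rise and the endothelial, red blood cell and neutrophil sums fall. Most of the hypoxia sum is Eno1, Aldoa, Ldha and Pgk1. At the calcipotriol step the hypoxia sum falls from 10300 to 8220 CPM, still above every EtOH-treated tumor. There the macrophage, endothelial and red blood cell sums fall too, and the muscle, white adipocyte and neutrophil sums rise.

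The genes whose log2 CPM followed the members most closely over the 8 tumors were listed as a description; the tumors share their treatment groups, so any gene that differs between groups scores high. For Slc4a4 they were Zc3h12b (r = 0.997), AC161119.1 (0.993), Ccdc134 (0.987), Tmprss6 (0.987) and Ugt1a6b (0.984). Once group means were removed, the correlation was 0.94 for Zc3h12b and 0.45 to 0.89 for the others. Zc3h12b, a member of the regnase family of RNases, Tmprss6, a membrane serine protease, and Ugt1a6b, a glucuronosyltransferase, had no counts in any EtOH-treated tumor and means of 1.13, 1.09 and 1.62 CPM in calcipotriol-treated tumors. AC161119.1 also had no EtOH counts, and its calcipotriol mean was 0.749 CPM. For these genes the correlation without group means rests almost wholly on the calcipotriol-treated tumors, at low levels. Ugt1a6b shares exons with the other genes of its locus, so its count is uncertain.

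For Otop1 they included Hnrnpl (r = 0.984), Grem1 (0.98), Rab1b (0.979) and Alox5 (0.977). With group means removed, Alox5, which encodes 5-lipoxygenase, kept a correlation of 0.93, and the other genes named had 0.34 to 0.47. Alox5 averaged 11.4 CPM in EtOH-treated and 5.16 CPM in calcipotriol-treated tumors, and Grem1, a secreted BMP antagonist, averaged 172 and 77.5 CPM.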

How the data were processed

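Whole-tumor RNA of 8 mice was sequenced. The authors deposited expected counts per gene; the submitters' processing notes name STAR 2.5.3, RSEM 1.3.1, DESeq2 1.24.0 and GRCm38, without roles. The annotation and strandedness are not given in the sources used here. Totals were 19685419 to 25084713 per tumor, so 3 counts, the floor, are at most 0.152 CPM; floors cover counting error only.

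Expected counts were rounded to whole numbers. Identifiers were matched to GENCODE M21 (52133 of 55414 with a symbol). Genes were filtered (filterByExpr), scaled by TMM and tested with edgeR 4.0.16 (R 4.3.3), calcipotriol against EtOH, with Benjamini-Hochberg adjustment over 14458 genes. CPM uses TMM-scaled totals. DESeq2 1.42.0, limma-voom (limma 3.58.1), other filters and scaling, and leaving out tumors were alternatives. On simulated data for this comparison, at a log2 change of 2, edgeR recovered 197 of 200 changed genes with 13 false calls among 14265 genes tested. The changed genes were drawn from those with more reads, all genes shared 1 coefficient of variation, and no tumor pairs were simulated. The recovery therefore does not extend to genes with few reads, such as Car12.

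The members and all lists were chosen with earlier results of these data known. All members were named; of each family list, the genes called or else the most abundant; of hypoxia genes, those called; and the 5 genes most like Slc4a4 and Otop1, of which 1 is not reported here. Mean squared differences between replicates were 20.2 to 133 times those that counting error alone gives, so none was counted as a duplicate. The study's methods call the tumors of a group biological replicates.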

Additional observations from a re-analysis of the deposited data

Results flagged for a closer look

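The EtOH-treated tumors gave 1 value far from the rest of its group. Slc16a6 was at 10.5 CPM in EtOH tumor 2 and at 16.1, 16.2 and 16.5 CPM in the others, the gap being 0.941 of the group's range on the log2 scale. With 22 groups of values examined at the 5% level, chance would give about 1.1 such values, so a single one is no pattern.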

How the results depend on the processing

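The directions of Slc4a4, Otop1, Slc4a7, Slc16a1, Car9 and Car12 were the same in every alternative run for them (15 each, 14 for Car12), and both Slc4a4 (2.83 to 3.21) and Otop1 (-2.10 to -1.75) passed the thresholds in all 15. Car12 passed with DESeq2 only (1.73). The sign turned for Slc4a2 (0.13 without EtOH tumors 3 and 4, and -0.18 to 0.08 with 1 tumor left out), for Slc16a3 (0.37 without EtOH tumors 3 and 4) and for Car2 (0.33, likewise).

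Of all genes, 292 were called; the count was 458 with no filter on low counts, 766 with DESeq2, 177 without EtOH tumors 1 and 2, 605 without EtOH tumors 3 and 4, and 110 to 642 with 1 tumor left out, the 642 being without calcipotriol tumor 1. Of the other acid-base genes, 2 were called; the count was 1 with at least 10 counts in every tumor, 6 with DESeq2, 1 with limma-voom, 0 without EtOH tumors 1 and 2, and 0 to 5 with 1 tumor left out. Of hypoxia genes, 1 was called, 2 without EtOH tumors 3 and 4, and 1 to 2 with 1 tumor left out. The cause of these shifts was not tested. Leaving out EtOH tumors 1 and 2 or 3 and 4 was chosen after seeing the data. No paired analysis was possible because the groups share only 1 replicate number.

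With 4 tumors a group the biological coefficient of variation was 0.347, and Car12, Car2 and Car4 rest on few reads.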

Other observations

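Marker lists of other cell types, by edgeR and the same thresholds, had these counts: endothelial cells 5 of 10 tested genes lower, macrophages 3 lower and 1 higher of 10, red blood cell precursors 5 of 6 lower, white adipocytes 1 of 6 lower, and none called among 8 skeletal muscle, 6 epithelial, 4 neutrophil, 3 T cell, 3 differentiated keratinocyte and 1 brown adipocyte genes tested. Of those with none called, 3 muscle, 2 epithelial, 1 neutrophil, 0 T cell, 2 keratinocyte and 1 brown adipocyte genes had an unadjusted p below 0.05. By edgeR, 1 epithelial gene had an adjusted p below 0.05 but missed the fold threshold, and 1 was called without calcipotriol tumor 1. The epithelial list summed to 1010 to 1320 CPM in EtOH-treated and 593 to 891 CPM in calcipotriol-treated tumors, with 4 of the 6 tested genes positive and 2 negative. Over all genes tested, 2.02% were called and 18.4% had an unadjusted p below 0.05. In the lists with none called by edgeR, DESeq2 called 1 muscle and 1 keratinocyte gene, and limma-voom called 0.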
